A study of Mus musculus with 36 samples.

Results

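The last days of fetal heart growth in the mouse were described by setting the 3 arrays of embryonic day (E) 18.5 against the 3 arrays of E16.5, which are 6 of the 36 arrays of a series that runs from E10.5 to old adult hearts. The arrays were taken by their stage labels, and the 3 arrays of E17.5 served only as the intermediate point. All hearts came from OF1 (Oncins France 1) mice, an outbred stock, and the labels name no mutation, transgene or treatment at any stage. At E16.5, E17.5 and E18.5 alike, 1 array held a female heart, 1 a male heart and 1 hearts of both sexes mixed, a pool of animals, so that no sex label occurs more than 1 time within a stage and the spread between arrays of a stage contains any difference between the sexes. Whole hearts were homogenised, and in such bulk RNA fewer cells of a type and less RNA per cell cannot be told apart.

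In the late fetal heart, cardiomyocytes still divide but leave the cell cycle step by step, and they add mitochondria, sarcomeres and the ion channels that shape the adult action potential. The fetal heart burns mainly glucose and lactate, and the use of fatty acids as fuel belongs to the time after birth. Fetal blood replaces embryonic globins with adult globins as red cell formation moves from the yolk sac to the liver, and glucocorticoid and thyroid hormones rise in the circulation before birth.

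The level of a gene is given as a log2 value after robust multi-array averaging (RMA), so a difference of 1 is a change of 2-fold, and levels of different genes were not set against each other because probe sets differ in brightness. Of 20701 genes, each read from its brightest probe set, 9744 had a mean level above 5 at E16.5 or E18.5, the expression limit used here. A gene is said to have risen or fallen when its adjusted p in limma was below 0.05 over all 45101 probe sets. Of the called genes, 4 that rose lay below the limit at E16.5 and 8 that fell lay below it at E18.5. Such a gene passed the limit only through the stage where it was high, and its fold is given as a bound, the higher mean against the limit of 5.

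Heart markers were bright on all arrays of both stages, with the mean over 9 ventricular markers between 9.90 and 10.26. The label for RNA extraction speaks of liver tissue, but none of the 10 liver markers on the array passed the expression limit, and the brightest of them stayed between 3.71 and 4.23 over the 6 arrays. Markers of lung epithelium (9 on the array), neutrophils (9) and brown adipocytes (6) had no member above the limit. The mixed-sex arrays of E17.5 and E18.5 stood apart from the others: their mean distance to the arrays of their own stage was 79.0 and 71.9 against 38.0 to 61.0 for the other 7 arrays of these 3 stages, each was the other's nearest array, their poly-A spike controls were higher (8.95 and 8.50 against 7.07 to 8.13) and the 3′ signal of Gapdh was lower (11.17 and 11.67 against 11.86 to 12.41). Results are therefore given with and without the E18.5 mixed-sex array for part of the genes and lists. Other genes may depend on it too, and the named genes that lost their call without it can be read from the account of the calls below. Titles of all E17.5 and E18.5 arrays begin with the word heart, as does only the female array at E16.5. What that prefix stands for is not stated, and stage and prefix can be told apart only through that array.

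Between E16.5 and E18.5, 44 genes changed: 23 rose (0.236% of the genes tested) and 21 fell (0.216%). The genes that rose included an action potential subunit (Kcnip2), a muscle form of cytochrome c oxidase (Cox6a2), lipid handling (Plin4, Mgll), hormone-responsive regulators (Klf9, Socs2) and matrix genes (Timp4, Mfap5). Those that fell included an embryonic globin (Hbb-y), a Wnt ligand and a Slit receptor (Wnt5a, Robo1), S-phase genes (Cdt1, Chek1) and a T-type calcium channel (Cacna1h). Changes were mostly small: the median over all 9744 genes was -0.08, with 37.0% of the differences above 0, and 45 genes differed by more than 2-fold, 23 upward and 22 downward. Without adjustment, a p under 0.05 was reached by 3.37% of genes upward and by 8.57% downward. In all 44 called genes the arrays of the 2 stages did not overlap, which follows largely from the choice of genes by these same arrays. Among all genes tested this held for 6.26% upward and 13.2% downward, the shares to set beside the counts without overlap in the gene lists below. The median was -0.02 without the E18.5 mixed-sex array and 0.00 after a further quantile normalization. With any probe set of a gene counted, 25 genes rose and 27 fell. Those called only through a dimmer probe set were Cd36 and Myom2, which rose, and Col23a1, Hells, Ntm, Plk4, Slit2 and Ssb, which fell. Calls in the gene lists below are judged by the brightest probe set alone.

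**Figure D1:**
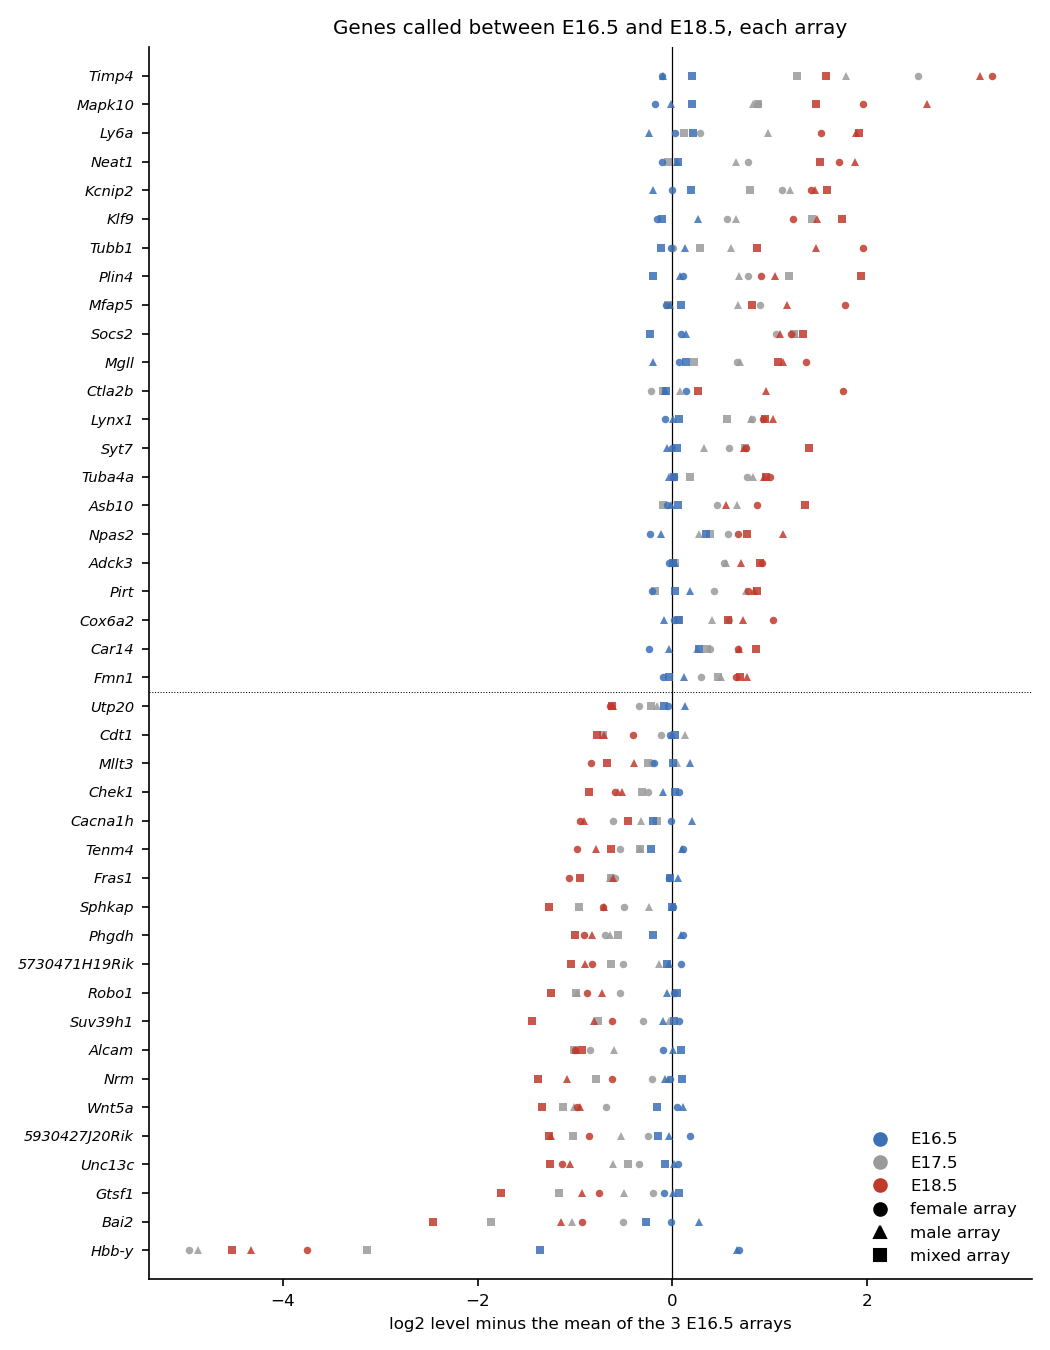
Level of 42 of the 44 called genes on each array of E16.5, E17.5 and E18.5, as the log2 difference from the mean of the 3 E16.5 arrays (horizontal axis), with 1 gene per row and 1 point per array. The E18.5 points of a gene all lie on the same side of its E16.5 points, from Timp4 with a mean difference of 2.67 to Hbb-y with -4.20.

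The 44 calls depended on single arrays. Leaving out the male, mixed or female array of E16.5 left 11, 15 or 10 genes higher and 3, 10 or 2 lower. Without the female, male or mixed array of E18.5, 16, 16 or 22 genes were higher and 26, 11 or 8 lower. With the mixed array of E18.5 left out, 14 of the 23 and 5 of the 21 genes were still called. Klf9, Adck3, Npas2, Lynx1, Syt7, Asb10, Pirt, Car14 and Fmn1 were then no longer called higher. Of the genes that fell, only Hbb-y, Unc13c, Tenm4, Cacna1h and 5730471H19Rik were still called. The direction was kept in all 44, as it had to be where the arrays of the 2 stages did not overlap. Against the single E16.5 array that shares the title prefix, the direction was the same in all 44, again fixed by the lack of overlap. That comparison sets 1 array against 3, with the lone array assumed to vary like the other stages. Its number of calls therefore does not tell whether the calls depend on the prefix. A further quantile normalization gave 41 genes higher and 15 lower, and centring each array on its median gave 33 and 10, so 73.2% and 76.7% of calls were upward there against 52.3% here. Without the female array of E18.5 that share was 38.1%.

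**Figure D2:**
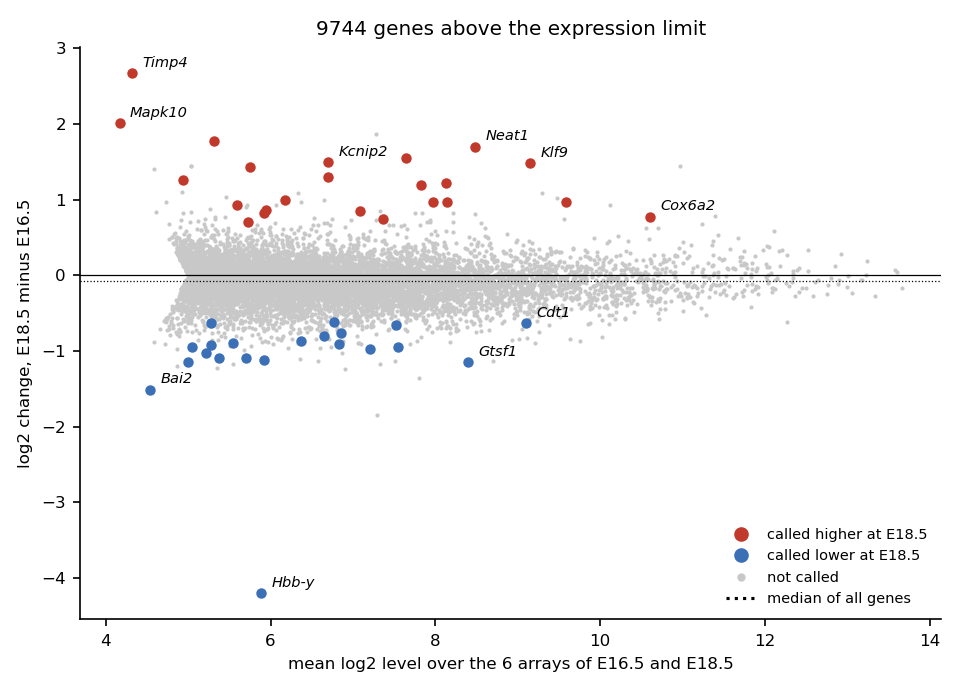
Difference between E18.5 and E16.5 (vertical axis, log2) against the mean level over the 6 arrays (horizontal axis, log2) for the 9744 genes above the expression limit, with the genes called higher and lower in colour and the median of all genes as a dotted line. Most genes lie close to the median of -0.08, and 44 points are coloured.

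Among the ion channel genes, Kcnip2 (chromosome 19), the accessory subunit of the channels that carry the transient outward potassium current, was at 5.95, 5.76 and 6.14 in the female, male and mixed E16.5 arrays, the order kept throughout, and at 7.38, 7.41 and 7.54 at E18.5. The arrays of each stage lay close together, and Kcnip2 rose 2.82-fold (log2 difference 1.49 ± 0.17, with the standard error after the sign here and in what follows, limma adjusted p = 7.25e-06), with 69.9% of that difference present at E17.5. Cacna1h (chromosome 17), the alpha-1H subunit of T-type calcium channels, moved the other way, from 7.22, 7.44 and 7.04 to 6.29, 6.33 and 6.78. It fell by 0.77 ± 0.17 (limma adjusted p = 0.0461), and without the E18.5 mixed-sex array, the highest of the 3, the difference was -0.92 (adjusted p = 0.0197). After the further quantile normalization Cacna1h was no longer called (adjusted p = 0.234).

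The M-band gene Myom2, which encodes myomesin 2 of the sarcomere, depended on the probe set. Its brightest probe set went from 10.06, 10.29 and 10.38 to 11.52, 11.77 and 11.78, a difference of 1.45 ± 0.35 that did not pass the test (limma adjusted p = 0.0733). A pair of dimmer probe sets of Myom2 were called higher, at 1.51 and 1.53 (limma adjusted p = 0.00134 and 0.00514). Myom2 is therefore not among the 23 genes, and it is named here after its values were seen. Of 44 contractile genes above the limit none was called, and 6 lay higher and 6 lower without overlap (13.6% each, against 6.26% and 13.2% of all genes tested). Their median difference was -0.02 (0.09 without the E18.5 mixed-sex array). Myh7, the fetal myosin heavy chain of mouse ventricle, was at 13.70, 13.67 and 13.87 at E16.5 and at 13.61, 13.53 and 13.58 at E18.5, near the top of the scale (difference -0.17, adjusted p = 0.893). Ttn, encoding titin, differed by less than 0.01 in size, between 13.11 and 13.30 on all 6 arrays.

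Potassium and sodium channel genes other than Kcnip2 gave no call. In the list of potassium, sodium and pacemaker channels, 24 of 37 genes on the array were above the limit, 9 of them lay higher at E18.5 without overlap and 1 lower, and the median difference was 0.25 against -0.08 over all genes. The brightest members overlapped between stages: Gja1, the ventricular connexin, went from a range of 12.26 to 12.40 to a range of 12.21 to 12.55, and Atp1b1, a sodium pump subunit, from 12.09 to 12.27 to 11.89 to 12.25. In the calcium handling list, 30 of 32 genes were above the limit, with Cacna1h the only call, 5 genes higher and 6 lower without overlap, and a median of 0.14. Atp2a2, the calcium pump of the sarcoplasmic reticulum, was at 11.51, 11.25 and 11.98 and then at 12.28, 11.85 and 11.56, and the arrays overlapped (difference 0.32 ± 0.23, limma adjusted p = 0.742).

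Genes of energy supply lay mostly higher at E18.5, with few calls. Cox6a2 (chromosome 7), the heart and skeletal muscle isoform of cytochrome c oxidase subunit 6a, was at 10.23, 10.12 and 10.28 at E16.5 and at 11.25, 10.93 and 10.78 at E18.5. It rose by 0.78 ± 0.14, or 1.71-fold (limma adjusted p = 0.00542), and its E17.5 mean was 10.56. A second, slightly dimmer probe set of Cox6a2 differed by 0.57 and was not called (limma adjusted p = 0.277). Of 80 genes of the respiratory chain and ATP synthase above the limit, Cox6a2 was the only call, 70 had a difference above 0, 10 lay higher without overlap and 0 lower, and the median was 0.25. The mean of the 80 genes on each array nevertheless overlapped between stages: relative to the E16.5 mean it was 0.00, -0.37 and 0.36 in the female, male and mixed E16.5 arrays and 0.62, 0.27 and -0.13 at E18.5. The mixed-sex array was the lowest of E18.5, and without it 32 of the 80 genes lay higher without overlap (12.0% of all genes did so) and the median was 0.38. Adck3 (chromosome 1, RefSeq symbol Coq8a), a kinase-like protein needed for coenzyme Q synthesis, rose by 0.85 ± 0.17 (limma adjusted p = 0.0229). Its dimmer probe set differed by 0.37 and was not called (limma adjusted p = 0.709).

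Lipid genes gave a pair of calls. Plin4 (chromosome 17), a coat protein of lipid droplets, was at 6.16, 6.13 and 5.85 at E16.5 and at 6.96, 7.10 and 7.99 at E18.5, highest in the mixed-sex array, and rose 2.46-fold (limma adjusted p = 0.00258). Without that array its difference was 0.98 in place of 1.30 (adjusted p = 0.0377). Mgll (chromosome 6), monoacylglycerol lipase, was at 7.29, 7.02 and 7.36 and then at 8.60, 8.36 and 8.31, and rose 2.29-fold (limma adjusted p = 0.0124). Among 46 genes of fatty acid use above the limit, Plin4 was the only call, 9 lay higher and 1 lower without overlap, and the median was 0.17. Lpl, lipoprotein lipase, went from 10.89, 10.79 and 11.30 to 11.94, 11.93 and 11.47 without overlap, but its difference of 0.79 ± 0.20 did not pass the test (limma adjusted p = 0.0997). For 36 genes of glycolysis and glucose uptake the median was 0.02, with none called.

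Regulators that respond to hormones formed a small set. Klf9 (chromosome 19), a transcription factor induced by glucocorticoids and thyroid hormone in several tissues, was at 8.25, 8.67 and 8.30 at E16.5 and at 9.65, 9.89 and 10.15 at E18.5. The lowest E18.5 array lay well above the highest E16.5 array. Klf9 rose 2.80-fold (log2 difference 1.49 ± 0.27, limma adjusted p = 0.00844), and all 3 of its probe sets above the limit were called. Without the E18.5 mixed-sex array the difference of Klf9 was 1.36 and its adjusted p 0.0719. Socs2 (chromosome 10), an inhibitor of growth hormone and other cytokine signalling, was at 7.61, 7.66 and 7.29, then at 8.59, 8.78 and 8.78 at E17.5 and at 8.74, 8.62 and 8.87 at E18.5. Socs2 rose 2.33-fold (limma adjusted p = 0.000381), and 97.6% of its difference was present at E17.5. Of 25 glucocorticoid-responsive genes above the limit Klf9 was the only call, 6 lay higher and 1 lower without overlap, and the median was 0.16. Among these, Nfkbia, an inhibitor of NF-kappa-B, lay between 9.94 and 10.14 at E16.5 and between 10.15 and 10.45 at E18.5 (limma adjusted p = 0.704). Of the 6 genes of the thyroid hormone axis above the limit Klf9 was again the only call, and Thra, the alpha receptor, differed by 0.02. Npas2 (chromosome 1), a partner of the core clock loop, was at 5.29, 5.40 and 5.86 and then at 6.19, 6.65 and 6.29, rose 1.81-fold (limma adjusted p = 0.0267) and was the only call among 16 circadian clock genes, whose median was 0.14.

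Among matrix genes, Timp4 (chromosome 6) encodes an inhibitor of matrix metalloproteinases found mainly in heart. Timp4 was at 2.88, 2.88 and 3.18 at E16.5, far below the limit, at 5.51, 4.77 and 4.26 at E17.5 and at 6.26, 6.14 and 4.56 at E18.5. The mixed-sex array was the lowest at both later stages, yet lay above every E16.5 array. Timp4 rose at least 1.57-fold over the limit (log2 difference of the values as measured 2.67 ± 0.29, limma adjusted p = 4.64e-06), and the difference was 3.22 without the E18.5 mixed-sex array. A further, dim probe set of Timp4 stayed at 3.20 and 3.28. Mfap5 (chromosome 6), a microfibril protein of elastic fibres made by fibroblasts, was at 4.24, 4.28 and 4.39 and then at 6.08, 5.49 and 5.13, and rose at least 1.48-fold (limma adjusted p = 0.013). Among 57 genes of elastic fibres, proteoglycans and other matrix these were the 2 calls. Without overlap 8 lay higher (14.0%, against 6.26% of all genes tested) and 6 lower (10.5%, against 13.2%). The median of that list was -0.13, and 0.04 without the E18.5 mixed-sex array, so its sign depended on that array. None of 25 collagens above the limit was called by its brightest probe set (median -0.11). A dimmer probe set of Col23a1 was called lower, from 5.17 to 3.68, below the limit at E18.5 (limma adjusted p = 0.00756). Of 15 fibroblast markers above the limit, Mfap5 was the only call and 4 lay higher without overlap. The summed level of the 16 fibroblast markers on the array was 129.4 to 132.7 at E16.5 and 129.2 to 136.7 at E18.5, and its part in the matrix results was not tested.

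A kinase and a noncoding RNA also rose. Mapk10 (chromosome 5), the JNK3 kinase known mainly from brain and heart, was at 2.98, 3.14 and 3.36 at E16.5, at 4.04, 3.99 and 4.04 at E17.5 and at 5.12, 5.78 and 4.63 at E18.5. With E16.5 and E17.5 below the limit, Mapk10 rose at least 1.13-fold (limma adjusted p = 0.000128). The other, dim probe sets of Mapk10 stayed at 2.51 and 2.73 and at 2.50 and 2.52. Neat1 (chromosome 19), the long noncoding RNA on which nuclear paraspeckles are built, was at 7.52, 7.68 and 7.69 and then at 9.34, 9.51 and 9.15, with tight groups at both stages. Neat1 rose 3.25-fold (limma adjusted p = 6.49e-05), and 27.3% of its difference was present at E17.5.

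Ly6a, Tubb1 and Ctla2b also rose. Ly6a (chromosome 15), the Sca-1 antigen of endothelial and progenitor cells, was at 4.44, 4.18 and 4.64 and then at 5.95, 6.31 and 6.34, and rose at least 2.30-fold (limma adjusted p = 0.00258). It belongs to a family of similar genes, so a probe set may also bind relatives. Tubb1 (chromosome 2), the beta-tubulin of platelets and megakaryocytes, was at 5.02, 5.17 and 4.91 and then at 6.99, 6.51 and 5.90, and rose 2.70-fold (limma adjusted p = 0.0267). Of 7 platelet markers, a list without Tubb1, 4 were above the limit and 3 of these lay higher at E18.5 without overlap, with none called and a median of 0.54. Pf4, a platelet chemokine, was at 6.34, 6.44 and 6.39 and then at 7.52, 7.49 and 6.16, lowest in the mixed-sex array. The summed level of the 7 markers was 31.0 to 31.3 at E16.5 and 32.7 to 35.9 at E18.5, and its part in the rise of Tubb1 was not tested. Ctla2b (chromosome 13), a cysteine protease inhibitor with a near-identical relative, Ctla2a, was at 5.82, 5.60 and 5.61, was still at 5.46, 5.75 and 5.58 at E17.5 and was at 7.43, 6.64 and 5.94 at E18.5 (difference 0.99, limma adjusted p = 0.0496). Macrophage and leukocyte markers had 11 members above the limit, none called and 3 higher without overlap, with a summed level over 26 markers of 117.7 to 119.4 at E16.5 and 119.7 to 124.6 at E18.5. Endothelial markers had 23 members above the limit, none called, 5 higher and 1 lower without overlap.

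Genes of antigen presentation and the interferon response had no call either, and only 17 of 54 on the array were above the limit. Of these 17, 11 lay higher at E18.5 without overlap and none lower, against 6.26% and 13.2% of all genes tested. Their median was 0.42, and 0.33 without the E18.5 mixed-sex array. Ifitm3, a membrane protein that restricts virus entry, was at 7.67, 7.17 and 7.42 and then at 8.60, 8.35 and 7.78 (difference 0.82 ± 0.21, limma adjusted p = 0.0937). B2m, the light chain of class I molecules, overlapped between stages, at 7.07, 6.24 and 7.38 against 7.59, 6.87 and 6.22. The leukocyte marker sums given above moved in the same direction, and their part in this list was not tested.

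The other genes that rose were Syt7 (a calcium sensor of vesicle fusion), Lynx1 (a modulator of nicotinic receptors), Tuba4a (an alpha-tubulin), Asb10 (an ankyrin protein of muscle), Pirt (a regulator of TRP channels), Car14 (a membrane carbonic anhydrase) and Fmn1 (an actin nucleator). Their differences ran from 0.70 for Fmn1 to 0.97 for Lynx1, Syt7 and Tuba4a. Tuba4a was the tightest of these, at 9.12, 9.07 and 9.12 against 10.11, 10.04 and 10.07 (limma adjusted p = 0.000197). Ctla2b, Asb10 and Tubb1 lay closest to the threshold among the 23 genes together with Npas2, at adjusted p between 0.0267 and 0.0496.

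Among the genes that fell was Hbb-y (chromosome 7), the embryonic beta-like globin of yolk sac red cells. Hbb-y was at 8.67, 8.64 and 6.62 in the female, male and mixed E16.5 arrays, at 3.01, 3.11 and 4.85 at E17.5 and at 4.23, 3.65 and 3.46 at E18.5. The mixed-sex array was the lowest at E16.5 and the highest at E17.5. All E18.5 arrays lay below the limit. Hbb-y was at least 7.88-fold lower at E18.5 (log2 difference of the values as measured -4.20 ± 0.37, limma adjusted p = 9.13e-08), after means of 13.60 at E10.5 and 12.81 at E14.5. A second probe set of Hbb-y fell by 4.37. Of 20 erythroid markers on the array 8 were above the limit, Hbb-y was the only call, 1 further gene lay higher and none lower without overlap, and the median was -0.24. The summed level of the other 19 markers, without Hbb-y, was 83.9 to 84.7 at E16.5 and 81.3 to 85.1 at E18.5, and these ranges overlapped.

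Timp4 and Hbb-y were the 2 genes past stricter limits, an adjusted p below 1e-05 and a log2 change above 2 with a mean above 5 in at least 1 stage (0.0177% of 11317 genes). Each lay below the expression limit at the other stage.

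Wnt5a, Robo1, Alcam, Fras1 and Tenm4 fell. Wnt5a (chromosome 14), a noncanonical Wnt ligand of the outflow tract, was at 6.30, 6.36 and 6.09 and then at 5.27, 5.31 and 4.91, and fell by 1.09 ± 0.24 (limma adjusted p = 0.0451). Robo1 (chromosome 16), a receptor for Slit ligands, was at 8.04, 7.97 and 8.07 and then at 7.15, 7.30 and 6.78, and fell by 0.95 ± 0.19 (limma adjusted p = 0.0229). Slit2, a ligand of Robo1, was called lower through a probe set other than its brightest (difference -1.39) and is named here after its values were seen. That probe set went from 5.73 to 4.34, below the limit at E18.5, so the size of its fall is uncertain. Without the E18.5 mixed-sex array it was not called (-1.02, limma adjusted p = 0.158). The brightest probe set of Slit2 was not called either (-0.95, limma adjusted p = 0.455). Between 86.0% and 88.0% of the differences of Wnt5a and Robo1 were present at E17.5. Of 33 cardiac transcription factors above the limit, 9 lay lower and 0 higher without overlap, 10 had a difference above 0, and the median was -0.18. Alcam (chromosome 16), a cell adhesion molecule of the immunoglobulin family, was at 7.59, 7.69 and 7.78 and then at 6.69, 6.70 and 6.76 (limma adjusted p = 0.0486), and 3 of its probe sets were called. Fras1 and Tenm4, an extracellular matrix protein of basement membranes and a teneurin, fell by 0.87 and 0.80.

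Without the E18.5 mixed-sex array Wnt5a, Robo1, Alcam and Fras1 kept differences between -0.80 and -0.99 but were not called (adjusted p 0.144 to 0.283), while Tenm4 was (-0.88, adjusted p = 0.044). After a further quantile normalization none of Wnt5a, Robo1, Alcam, Fras1 and Tenm4 was called (adjusted p 0.0635 to 0.159).

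Genes of the cell cycle lay lower at E18.5 as groups, while few passed the test alone. Cdt1 (chromosome 8), which loads the replicative helicase onto origins, was at 9.39, 9.41 and 9.45 at E16.5 and at 9.01, 8.71 and 8.64 at E18.5. It fell by 0.63 ± 0.14 (limma adjusted p = 0.0482). Chek1 (chromosome 9), the checkpoint kinase of S phase, was at 7.92, 7.75 and 7.87 and then at 7.26, 7.34 and 6.99, and fell by 0.65 ± 0.14 (limma adjusted p = 0.0464). Without the E18.5 mixed-sex array neither was called (Cdt1 -0.56, adjusted p = 0.294, Chek1 -0.55, adjusted p = 0.319), nor after the further quantile normalization. Suv39h1 (chromosome X), a histone H3 lysine methyltransferase of heterochromatin, fell by 0.95, and Nrm (chromosome 17), the inner nuclear membrane protein nurim, by 1.03. Both lay below the limit at E18.5, and their bounds are 1.44-fold and 1.66-fold. Without the E18.5 mixed-sex array neither was called (limma adjusted p = 0.347 and 0.32). Utp20, a component of the ribosomal small subunit processome, fell by 0.62 and was not called after the further quantile normalization.

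Of 59 DNA replication genes above the limit, Cdt1 and Chek1 were the 2 calls, 57 had a difference below 0, and 35 lay lower at E18.5 without overlap and 0 higher. Their median was -0.48, and -0.37 without the E18.5 mixed-sex array, when 39 lay lower without overlap (18.2% of all genes did so). Mcm7, a subunit of the replicative helicase, lay between 9.45 and 9.76 at E16.5 and between 8.41 and 9.24 at E18.5 (difference -0.75 ± 0.22, limma adjusted p = 0.186). Rrm2, a subunit of ribonucleotide reductase, differed by -0.52 (adjusted p = 0.55). Of 70 genes of mitosis and the kinetochore above the limit none was called, 68 had a difference below 0, 40 lay lower and 1 higher without overlap, and the median was -0.41. Cks1b, a cofactor of cyclin-dependent kinases, was at 10.37, 10.47 and 10.55 and then at 10.05, 10.03 and 9.58 (difference -0.58 ± 0.16, limma adjusted p = 0.169). On E18.5 arrays the mean over the 59 replication genes was -0.29, -0.46 and -0.61 relative to E16.5 in the female, male and mixed array, and over the 70 mitosis genes -0.27, -0.37 and -0.56. Every E18.5 array lay below every E16.5 array in both lists, and the E17.5 mixed-sex array, at -0.48 and -0.50, lay far below the female and male arrays of E17.5, at -0.14 and -0.04 for replication and -0.13 and -0.08 for mitosis.

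Among 24 cell cycle inhibitors and G1 cyclins none was called. Cdkn1c, an imprinted inhibitor of cyclin-dependent kinases, was at 9.63, 9.67 and 9.65 at E16.5 and at 8.97, 8.68 and 8.61 at E18.5, and its difference of -0.89 ± 0.20 missed the threshold (limma adjusted p = 0.0551). Fetal growth and oncofetal genes above the limit (28) had no call, 9 lower and 0 higher without overlap and a median of -0.38. Plagl1, an imprinted zinc finger gene, was at 12.56, 12.59 and 12.60 and then at 11.98, 12.13 and 11.77 (difference -0.62 ± 0.44, limma adjusted p = 0.738). That large standard error comes from all 12 stages, which share 1 estimate of the spread.

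**Figure D3:**
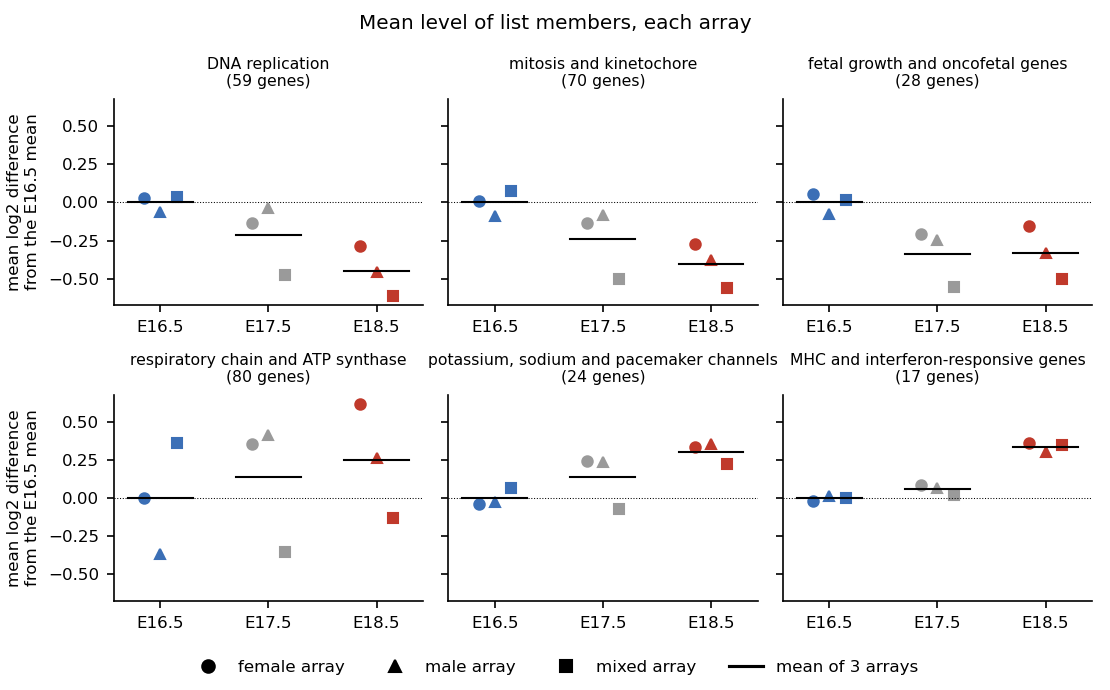
Mean level of the members above the expression limit of 6 gene lists on each array of E16.5, E17.5 and E18.5, as the log2 difference from the E16.5 mean (vertical axis), with symbols for the female, male and mixed array and a line for the mean of 3 arrays. DNA replication and mitosis means lie lower on all E18.5 arrays, and respiratory chain means overlap, from -0.37 to 0.36 at E16.5 and from -0.13 to 0.62 at E18.5.

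Both cell cycle lists carry known promoter elements, and a few promoters are shown to let these be seen. E2F factors bind elements of the type GGCGGGAA or GCGCGAAA in genes of DNA replication, and genes of mitosis carry the cell cycle homology region (CHR), TTTGAA, with CCAAT boxes. Windows from 250 bases before to 50 bases after the start of RefSeq transcripts (build GRCm38.p6) were searched on both strands. An E2F-type match lay in 17 of 48 DNA replication genes with a window (35.4%), in 3 of 58 mitosis genes (5.17%), in 449 of all 7478 genes above the limit with a window and in 2.50% of all 32851 windows. CHR letters lay in 43 of 58 mitosis genes (74.1%), in 9 of 48 replication genes (18.8%), in 13.9% of genes above the limit and in 17.9% of windows. CCAAT lay in 45 of 58 mitosis genes (77.6%), in 31 of 48 replication genes (64.6%), in 42.7% of genes above the limit and in 37.4% of windows. Of 15 genes that fell and have a window, Chek1 and Sphkap held an E2F-type match. Such a match is a run of letters, not a bound site.

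The 200 bases before the start site are printed for 3 replication genes with the largest difference among the members without overlap that hold a match there, with E2F-type letters in capitals. Uhrf1, a reader of hemimethylated DNA, is at chr17:56303137-56303336 on the plus strand, Mcm5, a helicase subunit, at chr8:75109309-75109508 on the plus strand, and Rfc3, a clamp loader subunit, at chr5:151651209-151651408 on the minus strand. The last match begins 48, 153 and 10 bases before the start site.
Uhrf1: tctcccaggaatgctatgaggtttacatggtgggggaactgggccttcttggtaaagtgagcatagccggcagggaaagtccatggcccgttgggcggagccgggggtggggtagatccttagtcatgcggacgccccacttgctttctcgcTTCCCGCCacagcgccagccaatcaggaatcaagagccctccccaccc
Mcm5: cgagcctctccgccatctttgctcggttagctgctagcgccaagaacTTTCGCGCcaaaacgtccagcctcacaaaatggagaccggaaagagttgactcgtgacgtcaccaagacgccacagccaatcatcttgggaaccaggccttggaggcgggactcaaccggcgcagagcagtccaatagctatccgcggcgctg
Rfc3: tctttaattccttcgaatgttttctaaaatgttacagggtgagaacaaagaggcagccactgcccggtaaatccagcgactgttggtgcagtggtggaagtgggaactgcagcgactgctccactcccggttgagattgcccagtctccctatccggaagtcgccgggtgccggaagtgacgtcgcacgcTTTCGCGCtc

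Uhrf1, Mcm5 and Rfc3 differed by -0.61, -0.60 and -0.36 (limma adjusted p 0.399, 0.259 and 0.575). Uhrf1 was at 6.82, 6.76 and 6.94 and then at 6.54, 5.94 and 6.21, and Mcm5 at 8.01, 7.91 and 8.04 and then at 7.78, 7.34 and 7.05. The lack of overlap between stages in these genes is the rule that chose them.

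The corresponding mitosis promoters have CHR and CCAAT letters, of either strand, in capitals. Smc2, a condensin subunit, is at chr4:52439021-52439220 on the plus strand, Kif11, a spindle motor, at chr19:37376182-37376381 on the plus strand, and Top2a, a topoisomerase of condensing chromosomes, at chr11:99024190-99024389 on the minus strand. Smc2 and Kif11 hold 1 CHR match each, which begins 145 and 19 bases before the start site, and Top2a holds 2, the last beginning 23 bases before it, with 5 CCAAT matches.
Smc2: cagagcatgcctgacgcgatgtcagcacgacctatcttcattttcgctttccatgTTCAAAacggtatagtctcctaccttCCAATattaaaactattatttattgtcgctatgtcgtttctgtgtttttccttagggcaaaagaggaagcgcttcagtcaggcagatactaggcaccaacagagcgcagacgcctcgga
Kif11: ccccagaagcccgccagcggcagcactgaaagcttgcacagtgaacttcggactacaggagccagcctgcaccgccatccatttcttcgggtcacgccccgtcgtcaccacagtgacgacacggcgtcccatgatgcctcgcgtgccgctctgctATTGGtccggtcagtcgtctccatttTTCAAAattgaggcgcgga
Top2a: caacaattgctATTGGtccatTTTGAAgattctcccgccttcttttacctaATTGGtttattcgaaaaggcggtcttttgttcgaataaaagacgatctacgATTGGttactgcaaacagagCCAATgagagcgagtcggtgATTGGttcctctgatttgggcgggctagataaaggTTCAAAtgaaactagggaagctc

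Smc2, Kif11 and Top2a differed by -0.77, -0.75 and -0.63 (limma adjusted p 0.454, 0.173 and 0.378). Top2a was at 9.22, 8.95 and 9.22 at E16.5 and at 8.60, 8.56 and 8.34 at E18.5, and Kif11 at 5.83, 5.42 and 5.96 and then at 5.02, 5.08 and 4.84. These genes too were chosen for no overlap between stages. The difference of Smc2, at 7.64, 7.52 and 7.82 and then at 7.42, 7.07 and 6.18, owed its size largely to the mixed-sex array (-0.41 without it).

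The remaining genes that fell have varied roles. Phgdh (chromosome 3), the entry enzyme of serine synthesis, was at 7.39, 7.38 and 7.09 and then at 6.38, 6.47 and 6.29, and fell by 0.91 ± 0.18 (limma adjusted p = 0.0198). After the further quantile normalization Phgdh was no longer called. A dimmer probe set of Phgdh above the limit had the opposite sign (0.26, not called). A dim probe set of Gtsf1 (chromosome 15), a partner of Piwi proteins in the germ line, stayed at 4.61 and 4.68. Its brightest was at 8.89, 8.98 and 9.05 and then at 8.21, 8.04 and 7.22, and fell by 1.15. Bai2 (chromosome 4, RefSeq symbol Adgrb2), an adhesion G protein-coupled receptor, went from 5.29, 5.58 and 5.03 to 4.37, 4.15 and 2.84, the lowest value again in the mixed-sex array. Below the limit at E18.5, Bai2 fell at least 1.23-fold (log2 difference of the values as measured -1.51 ± 0.28, limma adjusted p = 0.0109). Without the E18.5 mixed-sex array that difference was -1.04 (limma adjusted p = 0.153). Unc13c, a vesicle priming protein, fell by 1.14, Sphkap, an anchor protein of protein kinase A, by 0.89, and Mllt3, a subunit of the super elongation complex, by 0.63. Unc13c and Mllt3 lay below the limit at E18.5, and their bounds are 1.48-fold and 1.51-fold. The transcripts 5930427J20Rik and 5730471H19Rik, without a RefSeq entry in the table used, fell by 1.12 and 0.92. The latter lay below the limit at E18.5, with a bound of 1.67-fold.

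**Figure D4:**
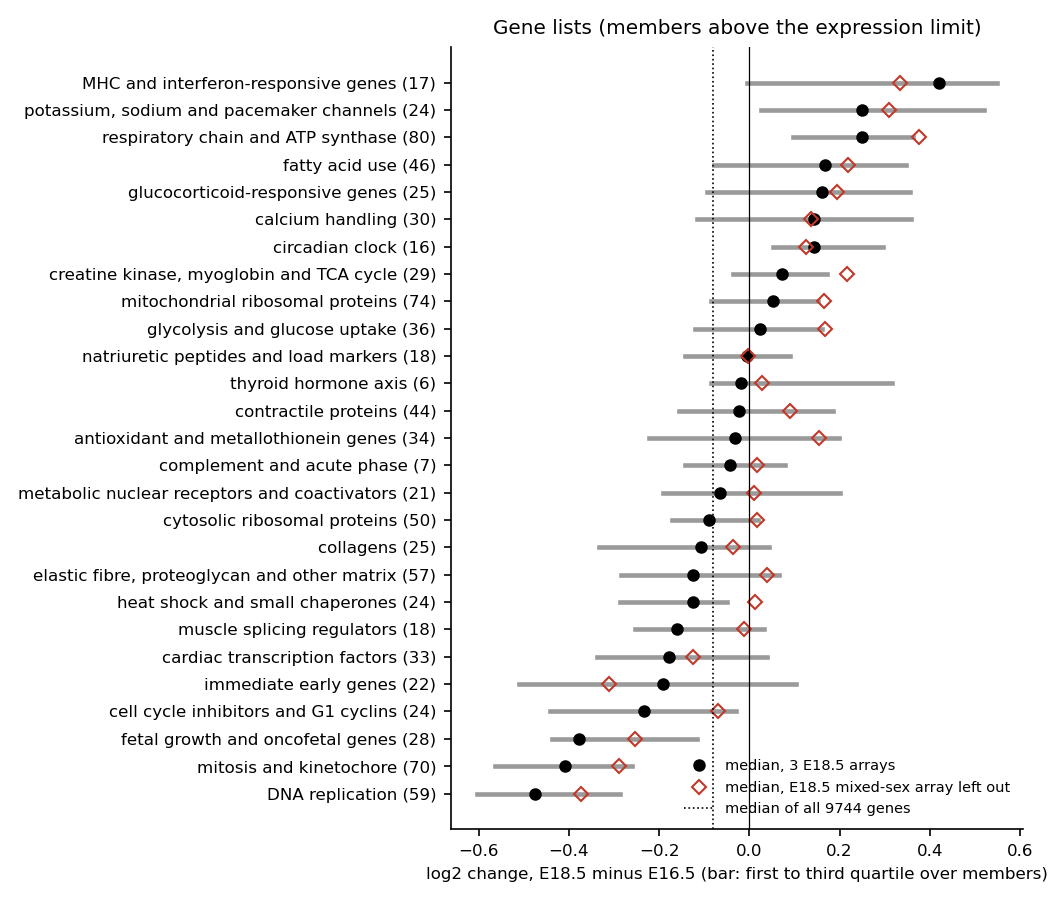
Median difference between E18.5 and E16.5 (point, log2), the same without the E18.5 mixed-sex array (open diamond) and the range from the first to the third quartile (bar) over the members of each gene list above the expression limit, with the number of members in brackets. DNA replication (median -0.48), mitosis (-0.41) and fetal growth (-0.38) lie lowest, and MHC and interferon genes (0.42, 17 members) highest.

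Other lists had medians between -0.16 and 0.07. Cytosolic ribosomal proteins (50 above the limit) had a median of -0.09 and mitochondrial ribosomal proteins (74) of 0.05, creatine kinase, myoglobin and citric acid cycle genes (29) of 0.07, metabolic nuclear receptors and coactivators (21) of -0.07, antioxidant and metallothionein genes (34) of -0.03, natriuretic peptides and load markers (18) of -0.01, complement and acute phase genes (7) of -0.04, heat shock genes (24) of -0.13 and muscle splicing regulators (18) of -0.16, with no call in any of them. Without the E18.5 mixed-sex array the same medians lay between -0.01 and 0.22. Ppargc1a, the coactivator of mitochondrial genes, was between 9.26 and 9.42 at E16.5 and between 9.16 and 9.45 at E18.5. Immediate early genes (22, median -0.19, none called) had 1 member higher and 2 lower without overlap. Among them, Fos and Egr1 varied more within a stage than their stage means differed. Fos was at 10.93, 10.57 and 6.31 at E16.5 and at 8.05, 7.08 and 9.27 at E18.5. Egr1 was at 10.65, 10.57 and 7.37 and then at 8.23, 8.12 and 9.77. Both were lowest in the mixed-sex array at E16.5 and highest in it at E18.5.

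The intermediate day and the neighbouring stages place the called genes in the longer course. For 42 of the 44 genes the E17.5 mean lay between the means of E16.5 and E18.5 (41 without the E17.5 mixed-sex array), the exceptions being Ctla2b and Hbb-y. Since E17.5 lies between the stages that chose the genes, this is a description. The E15.5 and E19.5 arrays entered the choice through the shared estimate of spread, and their levels are also a description: 22 of the 23 genes that rose lay higher at E19.5 than at E15.5 without overlap, as did 14.0% of all genes, with Tubb1 the exception, and all 21 genes that fell lay lower, as did 26.4% of all genes.

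Beyond birth the courses parted. Timp4 went on from 5.65 at E18.5 to 10.03 in the young adult, Neat1 from 9.33 to 12.06 and Ly6a from 6.20 to 10.06. Kcnip2 was at 7.44 at E18.5 and at 7.45 in the young adult, close to its late fetal mean. Npas2 went back from 6.38 to 3.20, and Pirt from 6.33 to 3.85. All 21 genes that fell had a lower mean in the young adult than at E18.5, among them Cdt1 (8.79 and 6.18) and Cacna1h (6.47 and 3.45). For 8 of the 21 the E18.5 mean already lay below the expression limit, where a further fall can hardly be read. The share of all genes with a lower young adult mean was not worked out, so that count has no background beside it.

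**Figure D5:**
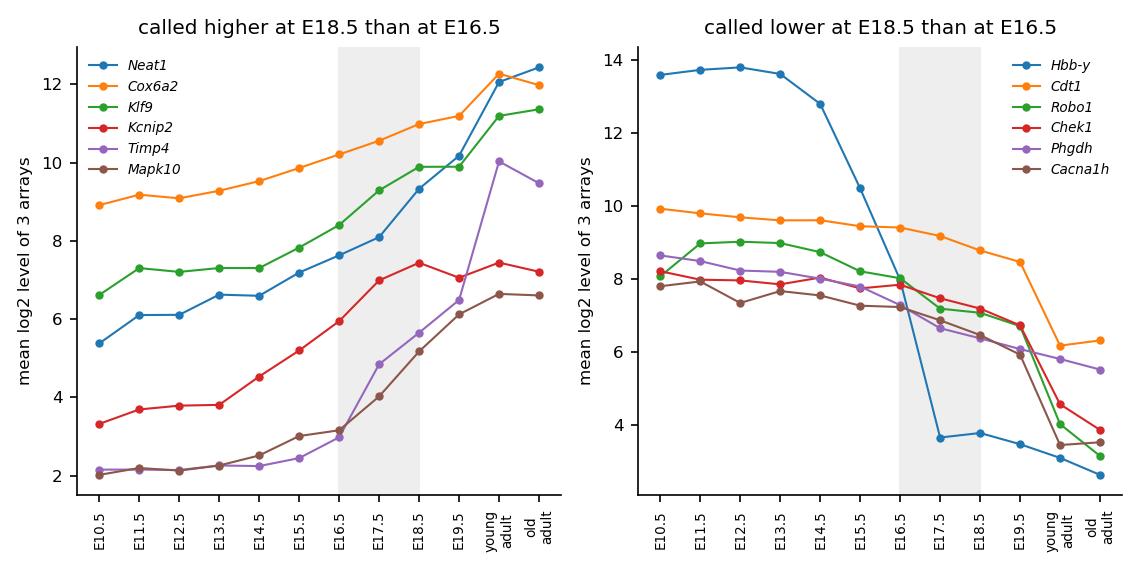
Mean log2 level of 3 arrays (vertical axis) at each of the 12 stages (horizontal axis) for 6 genes called higher and 6 called lower, with the E16.5 to E18.5 step shaded. Timp4 climbs from 2.98 at E16.5 to 10.03 in the young adult heart, and Hbb-y drops from 12.81 at E14.5 to 3.66 at E17.5.

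A test of whether the 2 daily changes within the step differed called 1 gene, Hbb-y (0.0101% of 9868 genes; 670 at an unadjusted p under 0.05 in limma). Hbb-y changed by -4.32 from E16.5 to E17.5 and by 0.12 from E17.5 to E18.5. Its means at E17.5 and E18.5 both lay below the expression limit, so a further fall could hardly be seen. Without the mixed-sex arrays of E17.5 and E18.5 Sh2d4a, which encodes an SH2 domain protein, was called as well (difference of changes 3.08, limma adjusted p = 0.0388). The step was also set against the preceding interval, E14.5 to E16.5, which shares the E16.5 arrays. No gene of 9943 was called in that test (0%; 170 at an unadjusted p under 0.05 in limma). Timp4, below the limit at E14.5 and E16.5, changed by 0.74 in the earlier interval and by 2.67 in the later, and Socs2 by 0.04 and 1.22. Without the E18.5 mixed-sex array the difference of the 2 changes of Timp4 was called (2.48, limma adjusted p = 0.0179).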

How the data were processed

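RNA of whole OF1 mouse hearts was hybridised to Affymetrix mouse whole-genome arrays, 3 arrays at each of 12 stages. The deposited log2 values were made by the authors with robust multi-array averaging (RMA), and the submitters' processing notes name Affymetrix Expression Console and Partek 6.6. Damaged gene symbols (the letters na turned into a hyphen, or a name turned into a date) were restored for 647 probe sets through their gene IDs. Of 45101 probe sets, 6937 carry no gene ID, and 18342 of 20701 genes matched RefSeq.

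Stage means were fitted on the deposited values of all 36 arrays with limma 3.58.1 in R 4.3.3, without covariates, as the study's methods fit limma across time points. The moderated test had 24 residual and 6.96 prior degrees of freedom, and p-values were adjusted by Benjamini-Hochberg over all probe sets. The median standard error was 0.187 and the median SD between arrays was 0.148 at E16.5 and 0.225 at E18.5. With 3 arrays a stage their number limits the precision, and the p-values measure the spread between these samples. Data were also simulated for E16.5 to E18.5, with 200 of 45101 probe sets changed, all with an E16.5 mean above 6. Changes of dimmer genes, as many of the called genes are, were not simulated. The noise was independent between arrays, with 1 spread per probe set at all stages. Arrays that stand apart and an unequal spread were not simulated, so recovery in the real data may differ. In that setting the fit recovered 9 of 50 changes of 0.5, 31 of 50 of 1, 48 of 50 of 1.5 and all 50 of 2 (log2). A gene that misses the threshold may therefore differ.

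The members and lists were chosen with earlier results of these data known. Named genes are the 15 highest and 15 lowest changes among called genes without overlap. Also named are the called members and the 3 brightest uncalled members of each list. Genes outside this rule were chosen after their values were seen. These are the called genes of smaller change, Pf4, Sh2d4a, the genes called only through a dimmer probe set and the 6 genes whose promoters are printed. Some genes asked for in the lists, such as Myh6, were not matched on the table and are not analysed here, and 2 called genes are counted but not reported by name. Promoters are RefSeq windows of GRCm38.p6, and the table is not complete. Sex labels were not taken to pair the arrays, because deviations of equally labelled arrays correlated at 0.26 (female), 0.01 (male) and -0.50 (mixed).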

Additional observations from a re-analysis of the deposited data

Results flagged for a closer look

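For 1 gene and 1 probe set, changes under the same contrast differed by a test of the difference itself. The 2 daily changes of Hbb-y differed by 4.447 on the log2 scale (standard error 0.649, limma adjusted p = 0.00509), with -4.32 from E16.5 to E17.5 and 0.12 from E17.5 to E18.5, where both means lay below the expression limit of 5 and left little room for a further fall. A probe set that has no gene ID changed by 1.98 from E14.5 to E16.5 and by -0.71 from E16.5 to E18.5, a difference of -2.69 (standard error 0.375, limma adjusted p = 0.00213). Its mean passed the limit at E16.5 alone, at 5.23 against 3.25 at E14.5 and 4.53 at E18.5. Both intervals share the E16.5 arrays.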

How the results depend on the processing

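All 44 called genes kept the direction of their difference under every alternative run. Only the further quantile normalization and the centring changed the values. In the other runs the direction could not turn, because the arrays of the 2 stages did not overlap in these genes. Without the E18.5 mixed-sex array, the medians of 8 of 27 gene lists turned from below to above 0, among them matrix genes (-0.13 to 0.04), contractile genes (-0.02 to 0.09) and antioxidant genes (-0.03 to 0.15). The counts of genes higher and lower, 23 and 21 in the report, were 9 and 2 on the 6 arrays alone, 9 and 2 on the 9 arrays of E16.5 to E18.5, 33 and 10 with centred arrays, 41 and 15 after a further quantile normalization, 0 and 1 on arrays with the title prefix, 20 and 13 with an expression limit of 6, and 12 and 8 with a log2 change of at least 1. With the mixed-sex arrays of E17.5 and E18.5 left out together, an alternative chosen after seeing the data, they were 26 and 11. With the sex label as a replicate block they were 22 and 21 on all arrays, and 0 and 0 on the 6 arrays alone (282 and 661 at an unadjusted p under 0.05 in limma), where the block leaves few degrees of freedom. Leaving out single arrays gave 10 to 22 genes higher and 2 to 26 lower. Called list members, 11 in the report, were 3 on the 6 arrays, 2 on the 9 arrays, 0 with the block on the 6 arrays and 0 with the prefix, 6 with a log2 change of at least 1, and 4 to 11 without single arrays. Genes past the strict limits, 2 in the report, were 0 on the 6 arrays, the 9 arrays, the block on the 6 arrays and the prefix arrays, and 1 to 2 without single arrays. Unequal daily changes were called for 2 genes in place of 1 without both mixed-sex arrays. A difference from the preceding interval was called for 1 gene in place of 0 without the E18.5 mixed-sex array, and for 1 without both. The cause of these shifts was not tested, except that fewer arrays leave fewer degrees of freedom. A filter before the fit, an intensity trend with a robust prior, no expression limit and the use of any probe set kept both counts within 1.5 times.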
